A study of Mus musculus with 4 samples.

Results

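The comparison described here set mouse brains 24 h after a permanent occlusion of the middle cerebral artery (PMCAO) against mouse brains 6 h after it. It was made from single dye channels: of the 8 channels of 4 two-colour arrays, the 4 that carried PMCAO RNA were taken, 2 at 6 h and 2 at 24 h. PMCAO RNA was labelled with Cy5 in sample 1 and with Cy3 in sample 2 at both times, so each time held both dyes. The other 4 channels carried RNA of sham-operated mice, and their own 24 h against 6 h difference is given beside the PMCAO values as the control arm.

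All animals were male C57BL/6J mice of 8 to 12 weeks, and both arms received isoflurane and an injection of saline into the cerebral ventricle. In the PMCAO groups a nylon filament was passed through the carotid artery into the middle cerebral artery and left there. In the sham groups the neck was opened, the carotid was exposed and the wound was closed, with no filament. Brains were taken 6 h or 24 h after the saline, from groups of 3 mice, and how the RNA of the 3 mice was combined is not given in the labels. According to the series design, RNA for the arrays came from the contralateral hemispheres, while the sample labels say brain only, and no value on the arrays settles which hemisphere was used. The labels call the arrays of a time dye swaps and leave unsaid whether samples 1 and 2 were separate RNA preparations. The p-values therefore measure only the spread between these channels, which may be technical and includes the difference between the dyes.

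Occlusion of a cerebral artery starves its territory of oxygen and glucose, and neurons there lose their ion gradients and release glutamate. Immediate early genes, which need no new protein to be transcribed, answer within minutes to hours. Chemokines and adhesion molecules then draw neutrophils and monocytes from the blood, while microglia and astrocytes of the tissue change shape and gene expression over the following day.

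Levels below are log2 intensities after normalisation within and between arrays, in the order sample 1 and sample 2. Differences are 24 h minus 6 h on the log2 scale with the standard error of the fit (n = 2 channels per time), tested with limma and adjusted by Benjamini-Hochberg over all 19122 genes tested at 0.05. The share of spots well above background ranged from 66.3% to 73.7% in PMCAO channels and from 67.3% to 73.6% in sham channels. Markers of the labelled tissue were present: the neuron genes Snap25 and Syt1, the astrocyte gene Aldh1l1, the oligodendrocyte gene Mog and the endothelial gene Cldn5 were tested and well above background in all 4 groups. Because the RNA came from bulk tissue, fewer cells of a type and less RNA per cell cannot be told apart.

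Between 6 h and 24 h of occlusion, 2102 genes rose (11% of all genes tested) and 1800 fell (9.41%), of which 205 rose and 29 fell at least 2-fold. The list counts below are to be read beside these shares of all genes tested. The median difference over all genes was -0.00094. For each gene that passed in either direction both 24 h channels lay beyond both 6 h channels, as they did for 63.4% of all genes tested. In the sham arm 363 genes rose (1.9%) and 329 fell (1.72%), and the PMCAO change exceeded the sham change in the upward direction for 358 genes (1.87%) and in the downward direction for 143 (0.748%). With dye added as a term, that difference instead passed for 3831 genes upward and 3607 downward, so whether a gene was shown to differ from sham depends on this choice. Leaving out 6 h sample 1 gave 715 higher and 360 lower genes in PMCAO, and leaving out 6 h sample 2 gave 676 and 474. In sham the same omissions left 32 higher and 70 lower, and 29 higher and 67 lower. When each channel was instead scaled to its 75th percentile, with no further normalisation, 47 genes rose and 23 fell, against a median over all genes of -0.16. The PMCAO minus sham difference then passed limma's adjusted test for 0 genes, while 295 upward and 316 downward genes had an unadjusted p under 0.05. That difference had 233 higher and 192 lower genes with the scanner software's processed signals, and 408 and 307 with quantile normalisation of the 8 channels. Of 332 members of the gene lists below that passed the PMCAO test, 178 still passed without each of the 4 arrays in turn. A member named below is among those 178 unless an adjusted p without an array is given for it. Of 140 list members whose PMCAO change differed from the sham change, 22 still differed without each array. Of 72 members called in sham, 7 still passed without each array. Among genes named below, sham calls that passed without each array were those of Amd2, Cga, Ch25h, Lgals3, Mfsd2a, Plin4 and Sgk1. Where a gene has several probes its brightest is given.

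**Figure D1:**
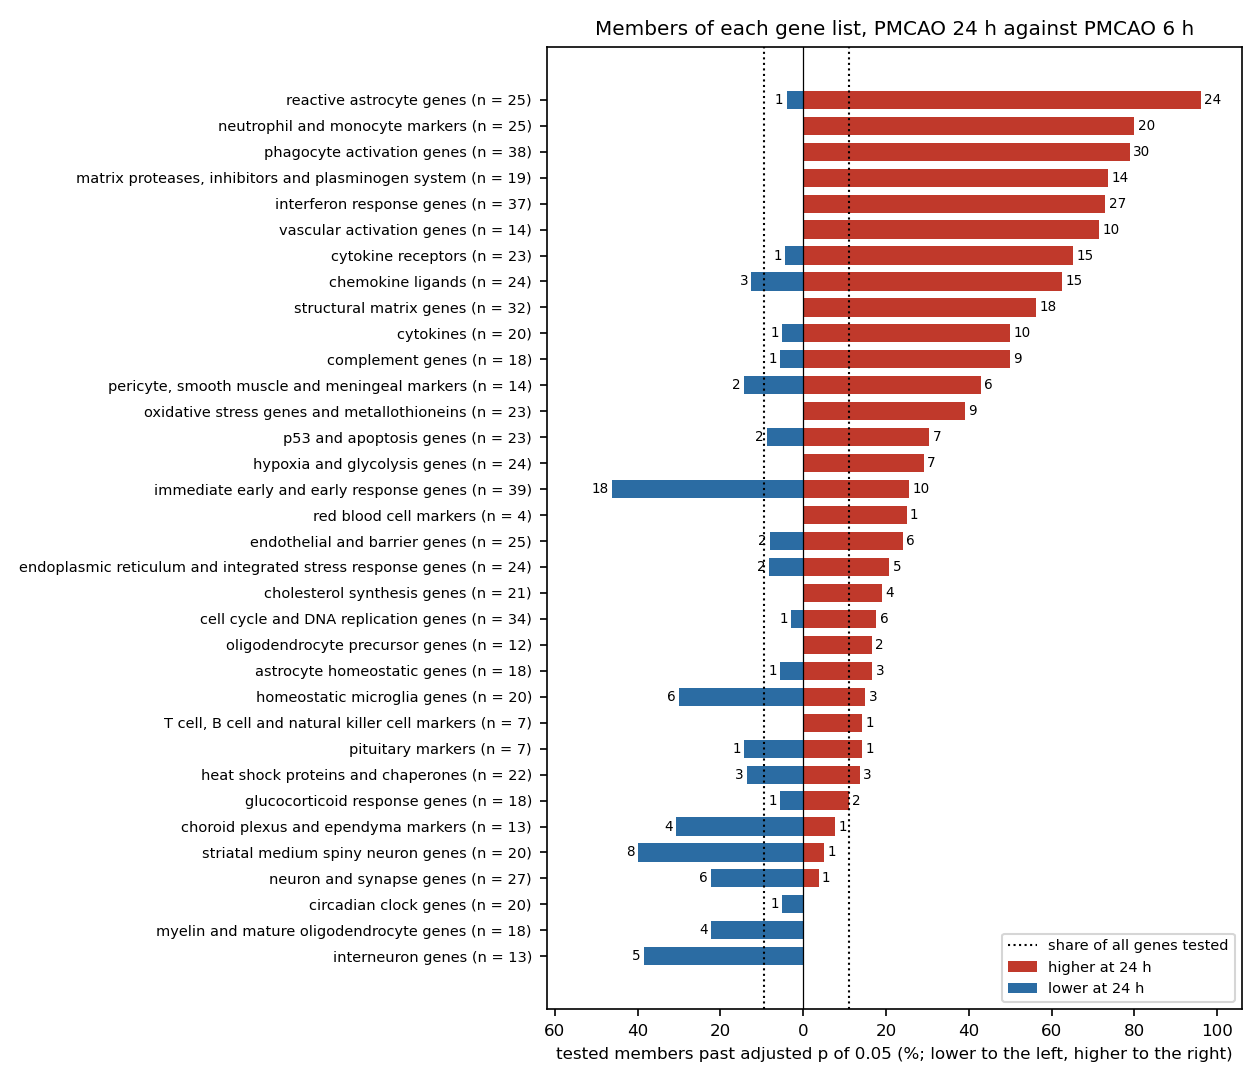
Share of the tested members of each of the 34 gene lists (n in brackets) that rose (red, to the right) or fell (blue, to the left) between PMCAO at 6 h and PMCAO at 24 h, in percent, with the number of members at the bar ends and dotted lines at the shares over all genes tested. Reactive astrocyte genes (24 of 25), neutrophil and monocyte markers (20 of 25) and phagocyte activation genes (30 of 38) reach farthest to the right, and immediate early genes (18 of 39) reach farthest to the left.

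Among genes with a symbol, the largest rise belonged to Mmp3, stromelysin 1, a secreted protease that cleaves matrix proteins and other proteases (probe at chr9:7453874-7453933 in mm7, plus strand). Its level rose from 6.89 and 6.81 to 11.04 and 10.85, a difference of 4.10 ± 0.23 or 17.1-fold (adjusted p = 3.3e-05). The clone-named 5430401F13Rik, singled out after its values were seen, was not well above background at 6 h and was at least 16.9-fold higher at 24 h. In sham Mmp3 stood between 6.08 and 6.75 in all 4 channels, so a single group held high values of Mmp3. Chil3, a chitinase-like lectin of activated macrophages, went from 7.88 and 7.98 to 11.80 and 11.76, a difference of 3.85 ± 0.12 (adjusted p = 4.3e-06). Il11, a cytokine of the interleukin 6 family, went from 7.94 and 7.94 to 11.73 and 11.84, a difference of 3.84 ± 0.09 (adjusted p = 1.9e-06). Unlike the former pair, Il11 also rose in sham, by 0.65 (adjusted p = 0.015), and the PMCAO change was larger by 3.19 (adjusted p = 0.00027). The sham rise did not pass without 6 h sample 1 (adjusted p = 0.068) or without 6 h sample 2 (adjusted p = 0.18).

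Tgm1, a transglutaminase that crosslinks proteins, rose by 3.21 ± 0.15, from 6.88 and 6.76 to 10.11 and 9.95. Saa3, an acute phase serum amyloid made locally in tissues, rose by 3.07 ± 0.16, from 6.93 and 6.89 to 10.05 and 9.91. Ptx3, a pentraxin that binds microbes and complement, rose by 2.87 ± 0.16, from 7.68 and 7.70 to 10.57 and 10.54. These 3 genes encode inducible secreted or enzyme proteins, and their 24 h channels lay far above every other channel. Slpi, an inhibitor of neutrophil elastase, rose by 2.52 ± 0.18, from 8.19 and 8.07 to 10.68 and 10.63. Cxcl10, Ccl2, Ccl12 and S100a9, which also belong to the 12 largest rises, are described with their lists. Bpifb9a, a secreted protein of the upper airway epithelium, was not well above background at 6 h and was at least 6.12-fold higher at 24 h (adjusted p = 0.0002), as taken up again with the mucosal genes at the end.

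Most falls were smaller, and 7 of the 12 largest among genes with a symbol belong to neuronal activity or to microglia. Npas4, a neuronal factor that depolarisation induces, fell by 3.07 ± 0.16, and Fosb, Bdnf and Egr4 are also among the 12. Slc4a7, a sodium bicarbonate cotransporter, stood at 13.50 and 14.50 at 6 h and 12.23 and 12.43 at 24 h (-1.67 ± 0.45, adjusted p = 0.034), with its 6 h channels far apart. Its call was lost without 24 h sample 1 (adjusted p = 0.077) and without 24 h sample 2 (adjusted p = 0.061), and in sham its difference was -2.04. Amd2, an adenosylmethionine decarboxylase of polyamine synthesis, fell by 1.21 in PMCAO and by 1.33 in sham (adjusted p = 0.00016 and 0.0017), so its fall was not larger after occlusion. Crybb1, a crystallin gene expressed by microglia in the brain, fell by 1.45 ± 0.09, and P2ry12, the ADP receptor of resting microglia, by 1.32 ± 0.14. The imprinted genes Phlda2, Dio3 and Mirg complete the 12, with falls of 1.20, 1.17 and 1.17.

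**Figure D2:**
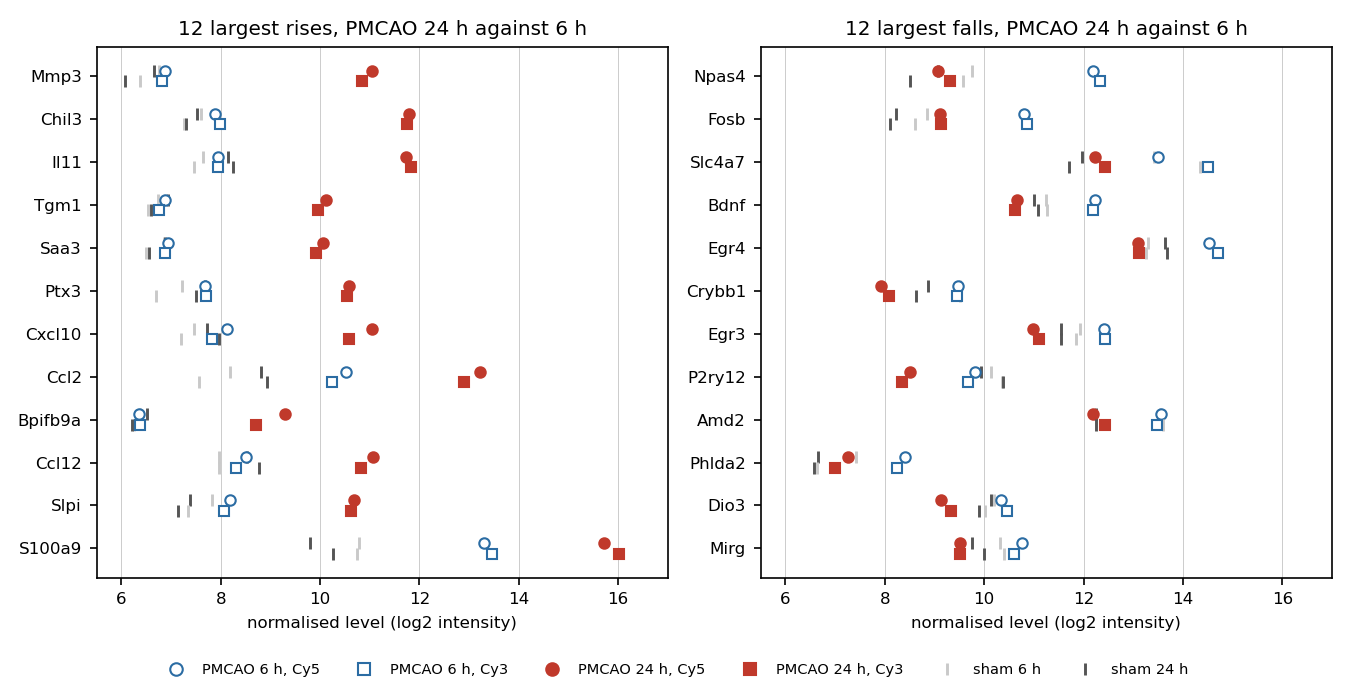
Normalised log2 intensity of the 12 largest rises and the 12 largest falls, among genes that passed and have a symbol, between PMCAO at 6 h (open blue) and PMCAO at 24 h (red), circles for the Cy5 and squares for the Cy3 channel, with the sham channels as light (6 h) and dark (24 h) ticks. For Mmp3 the red points lie at 11.04 and 10.85 and all other channels below 7, and for Npas4 the open points lie at 12.20 and 12.33, above all other channels.

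Chemokine ligands, the secreted proteins that draw leukocytes, rose as a group: 15 of 24 tested were higher and 3 lower, with a median difference of 1.37, and 1 was lower without either 6 h array. Ccl2, the main attractant of monocytes, went from 10.51 and 10.23 to 13.21 and 12.89, a difference of 2.68 ± 0.24 (adjusted p = 0.0003). Its sham levels were 8.20 and 7.56, then 8.81 and 8.94, and the PMCAO change was not shown to differ from the sham change (1.69, adjusted p = 0.073). Ccl12, a second CCR2 ligand of mice, rose by 2.52 ± 0.11, from 8.51 and 8.31 to 11.06 and 10.81, and in sham by 0.70 (adjusted p = 0.02, and 0.13 without either 6 h array). The PMCAO change of Ccl12 was larger than its sham change, by 1.83 (adjusted p = 0.0034). Cxcl10, an interferon-inducible ligand of CXCR3, rose by 2.83 ± 0.19, from 8.14 and 7.83 to 11.05 and 10.57, against 0.52 (adjusted p = 0.17) in sham.

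Ligands of the neutrophil receptor CXCR2 also rose. Cxcl1 went from 8.85 and 8.61 to 10.97 and 10.71, a difference of 2.11 ± 0.34 (adjusted p = 0.0043), while its sham channels lay between 6.33 and 7.61. Cxcl3 was not well above background in PMCAO at 6 h or in sham, and at 24 h it was at least 5.35-fold higher (levels 9.04 and 8.66, adjusted p = 0.00048). Cxcl2 rose by 1.27 ± 0.29, with adjusted p-values of 0.073 and 0.062 without 6 h sample 1 and without 6 h sample 2. All 3 genes had their 24 h PMCAO channels above every other channel. Among CC ligands, Ccl3 and Ccl4, attractants of macrophages, rose by 1.77 ± 0.22 and 1.59 ± 0.37. Ccl5, an attractant of T cells and monocytes, rose by 1.47 ± 0.10, Ccl7, an attractant of monocytes, by 1.83 ± 0.26, and Ccl11, an eosinophil attractant, by 1.66 ± 0.24. Ccl6 and Ccl9, CC ligands of rodents, rose by 1.62 and 1.57.

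The 3 chemokines that fell changed by less than the leading ligands. Cx3cl1, the neuronal ligand of the microglial receptor CX3CR1, went from 16.34 and 16.26 to 15.95 and 15.56, a difference of -0.54 ± 0.14 (adjusted p = 0.031, and 0.19 without 6 h sample 1). Cxcl12, made by vessels and meninges, went from 11.85 and 11.63 to 11.32 and 11.13, a difference of -0.52 ± 0.10 (adjusted p = 0.0089, and 0.13 without 6 h sample 1). Ccl27a fell by 0.46, with an adjusted p of 0.075 without 6 h sample 2. None of these 3 falls was shown to differ from sham.

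Promoters of the chemokines that rose are shown because 5 of the 9 with a RefSeq window held an exact match to the NF-kB site, the binding sequence of the NF-kB factors that serve many inflammatory genes. The window covers 250 bases before to 50 after the start of transcription in GRCm38.p6. Of all 27025 genes with a window 5.14% held such a match, and 6 of 16 tested chemokines with a window did, among them Ccl27a, which fell. Letters that match on either strand are in capitals, with overlapping matches merged, each stretch reads 5′ to 3′ on the gene's strand, and a match is a description and not a shown site of binding. The stretches of Cxcl1 (chr5:90891154-90891204, plus strand), Cxcl2 (chr5:90903782-90903832, plus strand), Cxcl3 (chr5:90786008-90786058, plus strand), Cxcl10 (chr5:92348963-92349068, minus strand) and Ccl9 (chr11:83578642-83578691, minus strand) follow.
Cxcl1: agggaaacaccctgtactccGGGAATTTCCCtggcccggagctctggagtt
Cxcl2: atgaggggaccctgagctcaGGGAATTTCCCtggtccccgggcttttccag
Cxcl3: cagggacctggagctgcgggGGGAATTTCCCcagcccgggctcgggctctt
Cxcl10: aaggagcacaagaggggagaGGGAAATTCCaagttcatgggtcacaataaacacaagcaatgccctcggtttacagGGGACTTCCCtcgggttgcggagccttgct
Ccl9: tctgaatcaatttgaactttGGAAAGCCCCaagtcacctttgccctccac
In Cxcl1, Cxcl2 and Cxcl3, all on chromosome 5, the capitals spell the same run of letters at 71, 97 and 73 bases before the start, and Cxcl10 holds separate matches at 159 and 103 bases before it.

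Cytokines had 10 of 20 members higher and 1 lower, with a median of 0.36. Besides Il11, the largest rise was that of Il6, a cytokine of the acute phase, from 7.27 and 7.13 to 9.60 and 9.15 (2.17 ± 0.28, adjusted p = 0.0018). Il1b, interleukin 1 beta, went from 8.10 and 8.02 to 10.17 and 9.90 (1.98 ± 0.15, adjusted p = 0.00016), against a sham difference of -0.40 (adjusted p = 0.19). Its antagonist Il1rn was not well above background at 6 h and was at least 3.65-fold higher at 24 h. Agonist and antagonist of the interleukin 1 receptor thus both had higher levels at 24 h. Csf3, the growth factor of neutrophils, rose by 1.43 ± 0.14, Tnf, a pro-inflammatory cytokine, by 0.98 ± 0.14, Tgfb1, a regulator of inflammation and matrix, by 0.69 ± 0.10 and Csf1, the growth factor of microglia and macrophages, by 0.64. Osm and Clcf1, further ligands of the interleukin 6 family, rose by 0.61 and 0.40, with adjusted p-values of 0.056 and 0.17 without 6 h sample 1. Il18, a member of the interleukin 1 family, fell by 0.34 (adjusted p = 0.18 without 6 h sample 1).

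Cytokine receptors had 15 of 23 members higher and 1 lower, with a median of 0.42. Leaving out 6 h sample 1 or 6 h sample 2 gave 9 or 8 higher. Il1r2, a decoy receptor for interleukin 1, rose most, from 7.95 and 7.94 to 9.47 and 9.37 (1.48 ± 0.17, adjusted p = 0.00097). Il4ra, the receptor chain for interleukins 4 and 13, went from 10.63 and 10.62 to 11.62 and 11.70 (1.03 ± 0.07), Tnfrsf1a, a receptor of TNF, from 11.82 and 11.64 to 12.80 and 12.66 (1.01 ± 0.10), and Tnfrsf12a, the receptor of TWEAK, from 11.67 and 11.80 to 12.68 and 13.01 (1.11 ± 0.13). The sham differences of these 3 receptors were 0.09, -0.13 and -0.18. Osmr, the oncostatin M receptor chain, rose by 0.67 ± 0.08 on its brightest probe, while its other probe gave 0.25. Csf2rb, the shared chain of the interleukin 3 family receptors, rose by 1.24 ± 0.12 with its other probe at 0.13, and Il1rap, the accessory chain of the interleukin 1 receptor, fell by 0.53 on 1 of its 4 probes (adjusted p = 0.092 without 6 h sample 1), while its probes ranged from -0.53 to 0.27.

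**Figure D3:**
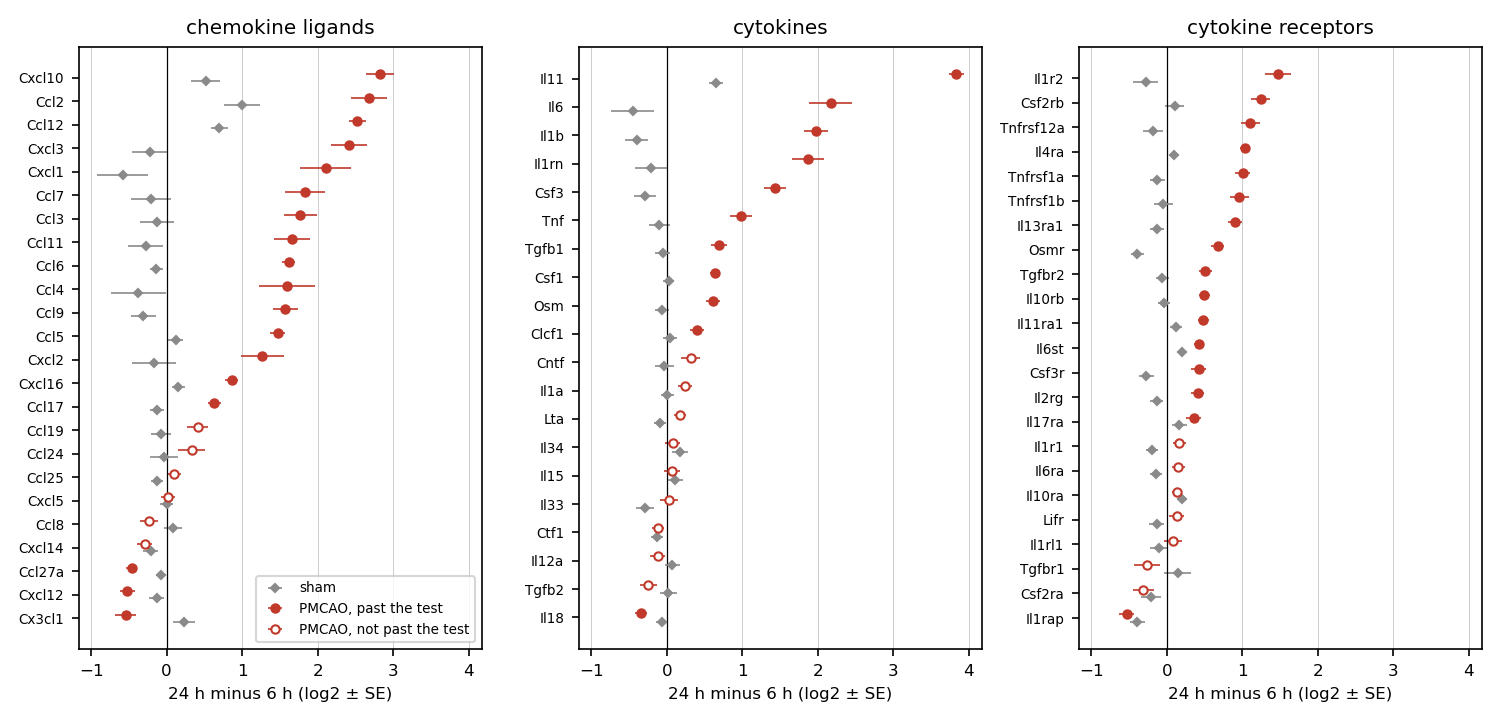
Log2 difference between PMCAO at 24 h and PMCAO at 6 h for the tested members of the lists of chemokine ligands, cytokines and cytokine receptors, in red (filled where the test was passed, open where not), with the sham difference as grey diamonds and bars as the standard error of the fit (n = 2 channels per time and arm). Ligands reach 3.84 for Il11 and 2.83 for Cxcl10, and receptors reach 1.48 for Il1r2.

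Neutrophil and monocyte markers had 20 of 25 tested members higher and 0 lower, with a median of 1.00. The number higher was 13 without 6 h sample 1 or without 6 h sample 2. S100a9 and S100a8 form calprotectin, the main cytosolic protein of neutrophils. S100a9 stood at 13.29 and 13.46 at 6 h and at 15.71 and 16.02 at 24 h, a difference of 2.49 ± 0.19 (adjusted p = 0.00017). S100a8 stood at 10.27 and 10.09 and then at 12.54 and 12.18, a difference of 2.18 ± 0.23 (adjusted p = 0.00064). In sham the difference was -0.74 (adjusted p = 0.08) for S100a9 and -1.17 (adjusted p = 0.038, and 0.21 without 6 h sample 1) for S100a8. The PMCAO change exceeded the sham change by 3.22 and 3.35 (adjusted p = 0.0034 and 0.0053).

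Retnlg, a resistin-like protein of neutrophils, went from 9.13 and 9.04 to 11.26 and 11.14, Clec4d, a myeloid lectin receptor, from 8.07 and 7.81 to 10.06 and 9.73, and Cxcr2, the receptor of Cxcl1, Cxcl2 and Cxcl3, from 6.75 and 6.76 to 7.85 and 7.67. Fpr1, the formyl peptide receptor, rose by 1.37 ± 0.11, Hdc, the enzyme that makes histamine, by 1.09 ± 0.08, and Hp, haptoglobin, by 1.55. Mmp8, the collagenase of neutrophils, rose by 1.32, with adjusted p-values of 0.064 and 0.084 without 6 h sample 1 and without 6 h sample 2. Markers that were not called include Mpo, myeloperoxidase of neutrophil granules, at 0.10, Ltf, lactoferrin, at 0.17, and Ccr2, the receptor of monocytes for Ccl2, at 0.26. The granule gene Ngp rose by 0.76 (adjusted p = 0.12 without 6 h sample 1), while Camp, Elane, Ly6g, Ccr1 and Ly6c2 were not among the genes tested.

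Phagocyte activation genes, which encode scavenger receptors, Fc receptors, lysosomal enzymes and oxidase subunits of microglia and macrophages, had 30 of 38 members higher and 0 lower, with a median of 0.72. Spp1, osteopontin, an adhesive cytokine of activated macrophages, rose from 12.98 and 12.98 to 15.20 and 15.17 (2.20 ± 0.10, adjusted p = 2.1e-05). Msr1, a scavenger receptor, rose from 6.79 and 6.81 to 8.81 and 8.76 (1.99 ± 0.15), and its 3 probes all passed. Lgals3, galectin 3, rose from 9.12 and 9.03 to 10.97 and 10.80 (1.81 ± 0.09) and fell in sham by 0.90 (adjusted p = 0.0035). Each of the 3 had its 24 h PMCAO channels above every other channel.

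Arg1, the arginase of macrophages, was not well above background at 6 h and at least 4.14-fold higher at 24 h. Cd52, a small surface glycoprotein of leukocytes, rose by 1.52 ± 0.07, Cd44, the hyaluronan receptor, by 1.38 ± 0.07, Cd14, the co-receptor for lipopolysaccharide, by 1.22 ± 0.14, and Fcgr1, the high-affinity receptor of IgG, by 1.08 ± 0.07. Cd68, a lysosomal protein of phagocytes, rose by 0.88 ± 0.08, and Cybb, the catalytic chain of the phagocyte oxidase, by 0.69. Trem2, a microglial lipid receptor, was at -0.12 ± 0.08 (adjusted p = 0.34), Apoe, the main lipid carrier of the brain, at 0.09 and Mrc1, the mannose receptor, at -0.01. The list thus did not move as one.

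Homeostatic microglia genes, those of resting microglia, had 6 of 20 members lower and 3 higher, with a median of -0.09. P2ry12 fell from 9.82 and 9.67 to 8.50 and 8.35, Slc2a5, a fructose transporter, from 9.71 and 9.58 to 8.68 and 8.59, and Siglech, a sialic acid-binding lectin, from 8.18 and 8.18 to 7.35 and 7.45. In sham all 3 differed by less than 0.2 between the times, and the PMCAO change differed from the sham change for each, with adjusted p-values of 0.038, 0.0095 and 0.035, though for 0 of the 20 without either 6 h array. Gpr34, a lysophosphatidylserine receptor, fell by 0.79 (adjusted p = 0.053 without 6 h sample 1) and Selplg, a ligand of selectins, by 0.65. Crybb1 fell in sham as well, by 0.77. By contrast Tmem119 was at -0.24 (adjusted p = 0.068) and Csf1r, the receptor of Csf1, at -0.02. Cx3cr1, the receptor of Cx3cl1, rose by 0.54 on its brightest probe (adjusted p = 0.062 without 6 h sample 2), and Gpr84, a receptor for fatty acids that activated microglia induce, by 1.48 ± 0.18. The number higher in this list was 1 without 6 h sample 2.

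Markers of T cells, B cells and natural killer cells gave no comparable group: 7 of 15 were tested, 1 rose and 0 fell. Of all genes tested 11% rose and 9.41% fell. The defining markers Cd3d, Cd3g, Cd8a, Cd79a and Ms4a1 were not among the genes tested, and Cd3e was at -0.05 and Cd8b1 at -0.07. The member that rose was Klrb1c, a natural killer cell receptor, from 13.26 and 13.30 to 14.08 and 13.93, with sham levels between 13.46 and 14.04.

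Reactive astrocyte genes had 24 of 25 members higher and 1 lower, with a median of 1.18. Gfap, the intermediate filament of astrocytes, rose from 12.13 and 11.93 to 13.37 and 13.26 (1.28 ± 0.09, adjusted p = 0.00011), and all 3 of its probes passed. Its sham levels were 11.65 and 11.79 and then 11.99 and 12.14, and the PMCAO change was larger by 0.93 (adjusted p = 0.02). Vim, vimentin, rose from 12.96 and 12.96 to 14.18 and 14.10, and Nes, nestin, from 9.98 and 9.89 to 11.45 and 11.24. Nes also rose in sham, by 0.66.

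Serpina3n, a secreted protease inhibitor induced in reactive astrocytes, rose from 9.25 and 9.12 to 11.32 and 11.36 (2.15 ± 0.11, adjusted p = 2.4e-05). Timp1, the inhibitor of metalloproteinases, rose from 11.64 and 11.70 to 13.75 and 13.79 (2.09 ± 0.07), and Lcn2, a siderophore-binding protein, by 1.13 ± 0.22. Cp, the ferroxidase ceruloplasmin, rose by 1.10 ± 0.07, Tm4sf1, a membrane protein of endothelial and glial cells, by 1.59 and Stat3, the transcription factor downstream of the interleukin 6 receptors, by 0.34 (adjusted p = 0.25 without 6 h sample 1). The single member that fell was Ptgs2, cyclooxygenase 2, at -0.88, which is also an early response gene of neurons. Tgm1, Ptx3, Cd14 and Cd44 stand in this list too, and Cd14 and Cd44 are expressed by myeloid cells as well.

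Homeostatic astrocyte genes stood near no change, with 3 of 18 higher, 1 lower and a median of 0.03. The transporters and channels that serve astrocyte uptake and buffering were not called: Slc1a2 at -0.02, Slc1a3 at 0.05, Kcnj10 at -0.11, Aqp4 at -0.41 and Gja1 at -0.23. Sox9, an astrocyte transcription factor, rose by 0.66 (adjusted p = 0.061 without 6 h sample 1), Aldh1l1, a folate enzyme, by 0.37 (adjusted p = 0.13 without 6 h sample 1) and Aldoc, a glycolytic enzyme, by 0.26 (adjusted p = 0.16 without 6 h sample 1). Slc7a10, an amino acid transporter, fell by 0.44 (adjusted p = 0.079 without 6 h sample 1). The number higher was 0 without 6 h sample 1 and 1 without 6 h sample 2.

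Complement genes had 9 of 18 members higher and 1 lower, with a median of 0.32 and 4 higher without 6 h sample 2. C3, the central component, rose from 8.89 and 8.80 to 10.01 and 9.86 (1.09 ± 0.08), C4b from 10.18 and 10.26 to 11.11 and 11.31 (0.99 ± 0.09), and Serping1, the inhibitor of C1, from 9.09 and 9.04 to 9.82 and 9.76 (0.72 ± 0.07). Chains of the initiating component C1q were close to one another, with C1qa at 0.27, C1qb at 0.42 and C1qc at 0.35, of which C1qc passed (adjusted p = 0.0094, and 0.15 without 6 h sample 1). Cd59a, which blocks the membrane attack complex, fell by 0.36 in PMCAO (adjusted p = 0.11 without 6 h sample 1) and by 0.45 in sham.

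Interferon response genes, induced by type I and type II interferons, rose by small amounts in large number: 27 of 37 were higher and 0 lower, with a median of 0.47. Without 6 h sample 1 the number was 14 and without 6 h sample 2 it was 11. Ifitm3, a membrane protein that restricts virus entry, rose from 11.23 and 11.21 to 12.35 and 12.31 (1.11 ± 0.07), Gbp2, a guanylate-binding protein, from 9.19 and 9.14 to 10.35 and 10.16 (1.09 ± 0.10), and Irf1, a transcription factor of the pathway, from 11.05 and 11.09 to 11.96 and 11.87 (0.85 ± 0.07). Oasl2, of the oligoadenylate synthetase family, rose by 0.88 ± 0.12 and Igtp, an immunity-related GTPase, by 0.85 ± 0.08. Isg15, a ubiquitin-like modifier, rose from 8.39 and 8.23 to 9.09 and 9.13, with an adjusted p of 0.0066 and of 0.07 without 6 h sample 2. Except for Cxcl10, no member reached the size of the leading chemokines. The PMCAO change exceeded the sham change for 7 of the 37 (1 without either 6 h array).

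Promoters of 5 of the interferon genes are shown because the type of motif that interferon-activated factors bind, GAAA followed after any 2 letters by GAAA on either strand, was common in the list. It stood in the windows of 16 of 29 tested members that have one, including 14 of the 23 that rose, against 3.99% of all genes. The stretches are those of Isg15 (chr4:156200855-156200916, minus strand), Ifit1 (chr19:34640765-34640833, plus strand), Ifit3 (chr19:34583353-34583436, plus strand), Rsad2 (chr12:26456543-26456592, minus strand) and Stat2 (chr10:128270256-128270305, plus strand) in GRCm38.p6, with the matches in capitals.
Isg15: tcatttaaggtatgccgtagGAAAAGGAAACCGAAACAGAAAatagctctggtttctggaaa
Ifit1: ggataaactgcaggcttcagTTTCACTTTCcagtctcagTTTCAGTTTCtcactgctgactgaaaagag
Ifit3: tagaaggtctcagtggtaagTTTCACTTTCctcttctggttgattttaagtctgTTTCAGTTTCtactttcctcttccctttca
Rsad2: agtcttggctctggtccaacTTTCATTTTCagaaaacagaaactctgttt
Stat2: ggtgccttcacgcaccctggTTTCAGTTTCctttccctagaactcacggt
Ifit1 and Ifit3, RNA-binding antiviral proteins encoded on chromosome 19, each hold 2 matches and rose by 0.47 ± 0.10 and 0.55 ± 0.08 (adjusted p = 0.12 and 0.055 without 6 h sample 2). Rsad2, the antiviral enzyme viperin, rose by 0.64 ± 0.10, and its 3 probes gave values between 0.59 and 0.69. Stat2, a transcription factor of the type I pathway, rose by 0.51 ± 0.08 (adjusted p = 0.053 without 6 h sample 1).

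Matrix proteases, their inhibitors and the plasminogen system had 14 of 19 members higher and 0 lower, with a median of 0.63, and 9 higher without 6 h sample 1 or without 6 h sample 2. Next to Mmp3 and Timp1, Plaur, the urokinase receptor, rose by 1.28 ± 0.15, Adamts4 and Adamts9, aggrecan-cleaving proteases, by 1.02 ± 0.07 and 0.96, and Mmp9, gelatinase B, by 0.81. Mmp2 at 0.01, Timp2 at -0.00 and Plau, urokinase itself, at -0.06 were not called. Protease and inhibitor genes therefore rose side by side in this list.

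Structural matrix genes had 18 of 32 members higher and 0 lower, with a median of 0.38, 11 higher without 6 h sample 1 and 10 without 6 h sample 2. Thbs1, thrombospondin 1, rose from 7.28 and 7.26 to 9.17 and 8.94 (1.78 ± 0.17), although its 3 probes spanned 0.34 to 1.78. Col3a1, a fibrillar collagen, rose from 9.24 and 9.23 to 10.29 and 10.18 (1.00 ± 0.08), and Tnc, tenascin C, from 7.28 and 7.41 to 8.21 and 8.43 (0.97 ± 0.14). Lox, which crosslinks collagen, rose by 1.06 ± 0.17, and Dcn, the proteoglycan decorin, by 0.78. The proteoglycans of the perineuronal matrix were not called, with Acan at -0.17, Bcan at -0.13, Ncan at 0.05 and Vcan at 0.07.

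Vascular activation genes, which endothelial cells switch on in inflammation and hypoxia, had 10 of 14 members higher and 0 lower, with a median of 0.83. Icam1, the ligand of leukocyte integrins, rose from 9.65 and 9.60 to 11.13 and 10.96 (1.42 ± 0.09), Procr, the receptor of protein C, from 9.45 and 9.44 to 11.51 and 11.37 (1.99 ± 0.08), and Angpt2, an antagonist ligand of the receptor TIE2, from 9.85 and 9.80 to 11.38 and 11.26 (1.50 ± 0.09). Esm1, a proteoglycan of sprouting endothelium, rose by 1.45 ± 0.13, Adm, the vasodilator adrenomedullin, by 1.29 ± 0.13, and Selp, P-selectin, by 0.91 ± 0.10. Vcam1, an adhesion molecule for integrins, was at -0.17. All 10 that rose also changed more than in sham, and 3 did so without 6 h sample 1 or without 6 h sample 2.

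General endothelial and barrier genes had 6 of 25 higher and 2 lower, with a median of 0.15. Pecam1, an endothelial junction protein, rose from 7.73 and 7.76 to 8.75 and 8.79 (1.03 ± 0.08), and Vwf, von Willebrand factor, from 11.53 and 11.50 to 12.86 and 12.74 (1.28 ± 0.07), with a rise in sham of 0.70. Cldn5, the tight junction protein of brain vessels, rose by 0.73 ± 0.14 (adjusted p = 0.089 without 6 h sample 1). Itm2a fell by 0.49 (adjusted p = 0.1 without 6 h sample 2) and Mfsd2a, the lipid transporter of brain vessels, by 0.38 (adjusted p = 0.14 without 6 h sample 2), the latter with a sham fall of 0.80. Leaving out 6 h sample 1 or 6 h sample 2 gave 2 or 3 higher. Pericyte, smooth muscle and meningeal markers had 6 of 14 higher and 2 lower, with 2 and 1 higher without 6 h sample 1 and without 6 h sample 2. Aldh1a2, the retinoic acid-making enzyme of the meninges, led them, from 11.05 and 11.00 to 12.60 and 12.58 (1.57 ± 0.10), Pdgfrb, the pericyte receptor, rose by 0.66 (adjusted p = 0.065 without 6 h sample 2), and Rgs5, a pericyte regulator of G proteins, and Ogn, the proteoglycan osteoglycin, fell by 0.50 and 0.65 (adjusted p = 0.083 and 0.051 without 6 h sample 1).

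Immediate early and early response genes split: 18 of 39 fell and 10 rose, with a median of -0.139 in PMCAO and -0.135 in sham. Npas4 stood at 12.20 and 12.33 at 6 h and at 9.06 and 9.32 at 24 h (adjusted p = 2.7e-05), and in sham at 9.75 and 9.57 and then at 9.06 and 8.51. Its 24 h levels after occlusion thus overlapped those of sham, while its 6 h levels did not. Fosb, an AP-1 subunit, went from 10.81 and 10.86 to 9.10 and 9.14 (-1.71 ± 0.10, adjusted p = 3.5e-05), and Bdnf, the neurotrophin of activity, from 12.24 and 12.18 to 10.66 and 10.62 (-1.57 ± 0.07). For Bdnf the 24 h levels lay below the sham levels of both times, which were between 10.99 and 11.26.

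Egr4, an activity-dependent zinc finger factor, went from 14.52 and 14.70 to 13.09 and 13.11 (-1.51 ± 0.08, adjusted p = 3.1e-05), while in sham it went from 13.30 and 13.25 to 13.63 and 13.68. Its relatives Egr3, Egr2 and Egr1 fell by 1.37, 0.99 and 0.97, and the orphan receptors Nr4a2 and Nr4a1 by 0.99 and 0.85. Fos and Arc, textbook markers of neuronal activity, fell by 1.00 and 0.95, and in sham by 0.73 and 0.71, so that their PMCAO change was not shown to differ from that of sham (adjusted p = 0.74 and 0.62). Homer1, a synaptic scaffold, fell by 0.80, and all 3 of its probes passed (-0.80 to -0.60), and the phosphatases Dusp4 and Dusp6, which switch off MAP kinases, fell by 1.00 and 0.88.

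The 10 early genes that rose are largely known for stress, growth and inflammation. Fosl1, an AP-1 subunit of slower kinetics, led them, from 7.17 and 7.30 to 8.67 and 8.64 (1.42 ± 0.19, adjusted p = 0.002). Atf3, a stress-induced factor, rose from 11.08 and 11.02 to 11.86 and 11.71, with sham between 8.18 and 8.64 at both times, so it was high at both times of occlusion. Maff, a small Maf factor, rose by 0.67, Myc, a growth regulator, by 0.62, Ier3, a survival factor, by 0.75 (adjusted p = 0.053 without 6 h sample 2), Klf2, an endothelial factor, by 0.68 (adjusted p = 0.11 without 6 h sample 1), and Zfp36, which destabilises cytokine mRNA, by 0.44 (adjusted p = 0.069 without 6 h sample 1). Leaving out 6 h sample 1 or 6 h sample 2 gave 5 or 4 higher, whereas 17 were lower without either. In sham 11 members fell and 1 rose, with 1 lower without either 6 h array. Of 29 members with a promoter window, 3 held the full CRE TGACGTCA (Btg2, Dusp1 and Maff) and 0 of the 14 that fell did, against 2.03% of all genes. Of those 14, 6 held the NF-kB site (Bdnf, Egr4, Fos, Fosb, Fosl2 and Nr4a1), as did 2 of the 7 that rose (Ier3 and Maff) and 5.14% of all genes.

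Glucocorticoid response genes, induced by the adrenal stress hormone, were mostly not called in PMCAO, where 2 of 18 rose and 1 fell, with a median of 0.16. In sham 11 fell, with a median of -0.55. Plin4, a lipid droplet protein, stood at 13.01 and 13.11 and then at 13.24 and 13.18 in PMCAO, and in sham at 12.50 and 12.46 and then at 10.50 and 10.54. Its PMCAO difference was 0.15 ± 0.07 (adjusted p = 0.17), its sham difference -1.96 (adjusted p = 3.8e-05), and the changes differed by 2.12 (adjusted p = 0.00028). Sgk1, a kinase of ion transport, stood at 14.89 and 14.90 and then at 14.66 and 14.72 in PMCAO, and in sham at 14.71 and 14.73 and then at 12.95 and 13.14, so only sham at 24 h was low. The changes of Sgk1 differed by 1.47 (adjusted p = 0.0033, and 0.071 without 6 h sample 1).

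Angptl4, an inhibitor of lipoprotein lipase, rose by 0.84 ± 0.11 in PMCAO, from 13.18 and 12.92 to 13.98 and 13.79, and fell by 0.52 in sham. Sult1a1, a sulfotransferase, rose by 0.70 ± 0.08 and fell by 0.55 in sham. Tsc22d3, a glucocorticoid-induced leucine zipper protein, fell by 0.48 in PMCAO (adjusted p = 0.078 without 6 h sample 1) and by 0.55 in sham, while Cdkn1a, the cell cycle inhibitor p21, was at -0.03 in PMCAO and -0.68 in sham. In 8 of the 18 genes the PMCAO change exceeded the sham change. Without 6 h sample 1 or without 6 h sample 2, 2 members fell in sham and 1 differed between the arms. With quantile normalisation 7 fell in sham and 5 differed between the arms, and with processed signals 3 differed. Without 24 h sample 1 or 24 h sample 2, 5 or 4 rose in PMCAO. Fkbp5 and Per1, known targets of the receptor, were at 0.16 and 0.17 and were not called in either arm.

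**Figure D4:**
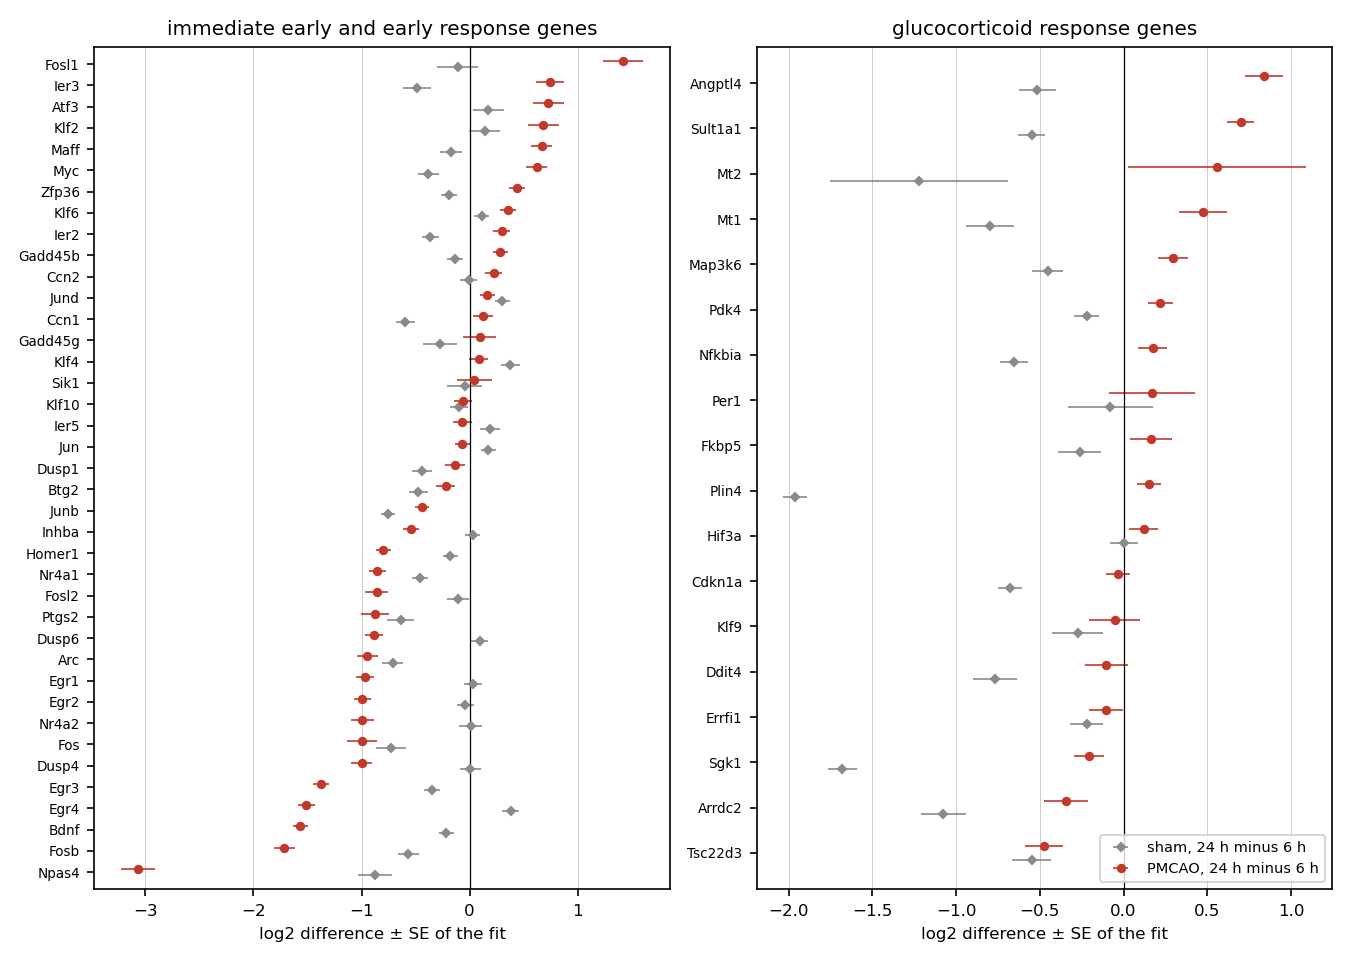
Log2 difference between 24 h and 6 h for immediate early genes (left) and glucocorticoid response genes (right), in PMCAO (red circles) and in sham (grey diamonds), with bars as the standard error of the fit (n = 2 channels per time and arm). Npas4 lies at -3.07 in PMCAO and -0.87 in sham, and Plin4 at 0.15 and -1.96.

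Among heat shock proteins and chaperones, 3 of 22 rose and 3 fell, with a median of -0.04, beside 11% and 9.41% of all genes tested. Without 6 h sample 1 there was 1 lower. Hspa1a, the inducible HSP70, was at 16.13 and 16.24 at 6 h and at 15.86 and 15.91 at 24 h (-0.29 ± 0.21, adjusted p = 0.38), with sham between 12.14 and 12.79, so it was high at both times. The near-identical Hspa1b may share its signal. Hspb1, the small heat shock protein HSP27, rose from 12.09 and 12.07 to 13.27 and 13.29 (1.20 ± 0.07, adjusted p = 4.8e-05). Its partners Hspb8 and Bag3, of chaperone-assisted autophagy, rose by 0.75 ± 0.12 (adjusted p = 0.06 without 6 h sample 1) and 0.62 ± 0.09. Dnajb1, a co-chaperone of HSP70, fell from 15.83 and 15.83 to 15.21 and 15.22, and Hspa4 and Chordc1, a nucleotide exchange factor and a co-chaperone of HSP90, fell by 0.52 and 0.37 (adjusted p = 0.092 and 0.24 without 6 h sample 1). The other probe of Dnajb1 was at -0.34 and was not called.

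The heat shock element GAANNTTC stood in the windows of 9 of 17 tested members, among them all 3 that rose and Chordc1, which fell, against 9.04% of all genes. Hspb1, which rose, is shown beside Hspd1, the mitochondrial chaperonin, which was at 0.16 ± 0.09 (adjusted p = 0.24), since both hold the element. The stretches are chr5:135887782-135887849 (plus strand) for Hspb1 and chr1:55088044-55088091 (minus strand) for Hspd1 in GRCm38.p6, with the element in capitals.
Hspb1: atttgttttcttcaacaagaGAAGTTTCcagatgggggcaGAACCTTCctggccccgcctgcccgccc
Hspd1: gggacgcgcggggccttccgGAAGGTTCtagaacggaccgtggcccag
The element thus also stood in a member that was not called. Whether it was more common among members that rose was not tested.

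Oxidative stress genes and metallothioneins had 9 of 23 higher and 0 lower, with a median of 0.29. Hmox1, heme oxygenase 1, rose from 10.69 and 10.62 to 12.88 and 12.90 (2.24 ± 0.07 or 4.72-fold, adjusted p = 4.3e-06), against 0.59 in sham. Slc7a11, the cystine transporter, rose by 0.84, and Nfe2l2, the transcription factor NRF2, by 0.68 ± 0.07, with 2 of its 4 probes passing. Osgin1 rose by 1.39 ± 0.08 on 1 of its 3 probes. The antioxidant enzymes Sod1 at -0.04, Cat at 0.05 and Prdx6 at -0.07 were not called, and Mt2, a metallothionein, was at 0.56 ± 0.53. The number higher was 5 without 6 h sample 1, 4 without 6 h sample 2 and 14 without 24 h sample 1.

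Hypoxia and glycolysis genes had 7 of 24 higher and 0 lower, with a median of 0.18, and 3 and 4 higher without 6 h sample 1 and without 6 h sample 2. Slc16a3, the lactate exporter MCT4, rose by 1.16 ± 0.09, from 10.51 and 10.40 to 11.65 and 11.58, and Hk2, the inducible hexokinase, by 1.06 ± 0.10. Vegfa at 0.23 (probes up to 0.68), Slc2a1 at 0.05 and Ldha at 0.16 (probes up to 0.41), common targets of hypoxia-inducible factors, were not called on their brightest probe. P53 and apoptosis genes had 7 of 23 higher and 2 lower, with 4 and 3 higher without 6 h sample 1 and without 6 h sample 2. Casp8, the caspase of death receptors, rose from 7.93 and 7.94 to 8.93 and 8.88 (0.96 ± 0.07), Casp4, an inflammatory caspase, by 0.49 and Birc3, an inhibitor of apoptosis, by 0.72 on 1 of its 2 probes. Trp53inp1, a p53 target, fell by 0.62, and the anti-apoptotic gene Bcl2 by 0.32 (adjusted p = 0.24 without 6 h sample 1). Genes of the endoplasmic reticulum and the integrated stress response had 5 of 24 higher and 2 lower, and 1 higher without 6 h sample 1 or without 6 h sample 2 (2 without 24 h sample 2). Trib3, a pseudokinase of this response, rose by 0.80 ± 0.10, and Slc3a2, the heavy chain of amino acid transporters, by 0.48 (adjusted p = 0.074 without 6 h sample 1), while the factors Atf4 at 0.12 and Ddit3 at 0.18 were not called. The other probe of Slc3a2 was at 0.11 and was not called.

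Neuron and synapse genes had 6 of 27 lower and 1 higher, with a median of -0.14, and 3 and 2 lower without 6 h sample 1 and without 6 h sample 2. Gria2, an AMPA receptor subunit, fell from 14.65 and 14.64 to 14.08 and 14.02 (-0.60 ± 0.07), and Grin2b, an NMDA receptor subunit, by 0.79 ± 0.11 on 2 of its 4 probes. Snap25 at -0.19, Syt1 at -0.06, Rbfox3 at 0.02 and Slc17a7 at -0.13, general markers of neurons and glutamatergic terminals, were not called. The member that rose was Syn1, a synaptic vesicle protein, at 0.58 on 1 of 2 probes (adjusted p = 0.12 without 6 h sample 1).

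Genes of striatal medium spiny neurons, which lie in the territory of the middle cerebral artery, had 8 of 20 lower and 1 higher, with a median of -0.24, and 5 lower without 6 h sample 1 or without 6 h sample 2. Arpp21, a regulator of calmodulin signalling, fell from 14.76 and 14.65 to 13.90 and 13.76 (-0.87 ± 0.08, adjusted p = 0.00035). Of its 3 probes 1 passed, and they ranged from -0.87 to -0.30. Pde10a, a striatal phosphodiesterase, fell by 0.78 ± 0.11, Tac1, the precursor of substance P, by 0.59 ± 0.08, and Rxrg, a retinoid receptor, by 0.58 ± 0.08. The dopamine receptors Drd1 and Drd2 were at -0.25 and -0.24 and were not called, and Ppp1r1b, DARPP-32, was at 0.04. The neuropeptide gene Pdyn rose by 0.32 (adjusted p = 0.16 without 6 h sample 1), and by 0.34 in sham.

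Interneuron genes had 5 of 13 lower and 0 higher, with 1 and 3 lower without 6 h sample 1 and without 6 h sample 2. All 5 encode neuropeptides: Cort, cortistatin, fell from 9.52 and 9.48 to 8.65 and 8.69, Cck by 0.66, Vip by 0.61, Sst by 0.38 and Npy by 0.33. Of these, Cort alone passed without each array, with adjusted p-values without 6 h sample 1 of 0.071, 0.051, 0.13 and 0.25 for the other 4. The synthetic enzymes of GABA, Gad1 at -0.05 and Gad2 at 0.32, and Pvalb at -0.12 were not called.

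Myelin genes had 4 of 18 lower and 0 higher, with a median of -0.14, and 1 lower without 6 h sample 1 or without 6 h sample 2. Ugt8a, the enzyme of galactocerebroside synthesis, fell from 10.46 and 10.55 to 9.59 and 9.61 (-0.90 ± 0.07, adjusted p = 0.00016), whereas Mbp at 0.41 (probes from -0.25 to 0.69) and Mog at -0.45, structural genes of myelin, were not called. Opalin, a membrane protein of oligodendrocytes, fell by 0.29 (adjusted p = 0.3 without 6 h sample 1). Oligodendrocyte precursor genes had 2 of 12 higher and 0 lower (0 higher without either 6 h array), with a median of 0.06 that was -0.02 with quantile normalisation. They were Sox10, a transcription factor of the lineage, at 0.44 and Erbb3, a neuregulin receptor, at 0.30 (adjusted p = 0.06 and 0.2 without 6 h sample 1). The other probe of Sox10 was at -0.02 and was not called. Cell cycle and DNA replication genes had 6 of 34 higher and 1 lower (6 lower with processed signals and 5 with quantile normalisation), with 2 and 1 higher without 6 h sample 1 and without 6 h sample 2. Among the 6 were the replication helicase genes Mcm6 at 0.70 ± 0.08, Mcm2 at 0.43, Mcm3 at 0.40 and Mcm7 at 0.31, of which the last 3 did not pass without 6 h sample 1 (adjusted p = 0.1, 0.14 and 0.15), while Mki67, a marker of cycling cells, was at -0.06 and Cenpa, a centromere histone, fell by 0.40 (adjusted p = 0.11 without 6 h sample 1). Cholesterol synthesis genes had 4 of 21 higher and 0 lower, with 1 and 2 higher without 6 h sample 1 and without 6 h sample 2, led by Fdft1, squalene synthase, at 0.61 on 1 of 2 probes. Of 20 circadian clock genes, Per2 fell, by 0.65 on 1 of 2 probes (adjusted p = 0.084 without 6 h sample 1), and 0 rose. Tef, a clock output factor, was at 0.31 and did not pass. Beside the counts of these lists, 11% of all genes tested rose and 9.41% fell.

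Against sham, most genes that passed in PMCAO did not pass in the other arm: 1902 of those higher and 1610 of those lower were not called in sham. Called the same way in both arms were 168 higher and 168 lower genes, which are 8.0% and 9.33% of those called in PMCAO and 46.3% and 51.1% of those called in sham. Called in opposite directions were 32 genes higher in PMCAO and lower in sham, and 22 the other way. Among the former were Lgals3 and Ch25h, the latter a hydroxylase that makes an oxysterol from cholesterol. Ch25h stood at 10.90 and 10.86 and then at 11.64 and 11.53 in PMCAO (0.70 ± 0.10), and in sham at 9.77 and 9.58 and then at 8.38 and 8.26 (-1.36, adjusted p = 0.0018). Among the latter were Egr4 and Rxrg, which rose in sham by 0.38 and 0.44.

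The PMCAO change itself was tested against the sham change, and 342 of the genes that rose and 121 of those that fell in PMCAO passed that test as well. Differences that passed without each array in turn belonged to Mmp3, Chil3, Il11, Tgm1, Saa3, Ptx3, Slpi, Cxcl10, Ccl12, Ccl6, Il1b, S100a8, S100a9, Hp, Spp1, Lgals3, Ch25h, Serpina3n, Timp1, Procr, Angpt2, Hmox1, Plin4, Egr4 and Cyp2a5. Every other difference from sham named here was lost without at least 1 array, among them those of Npas4 (-2.20, adjusted p = 0.006, and 0.064 without 6 h sample 1) and Bdnf (-1.35, adjusted p = 0.0019, and 0.064 without 6 h sample 1). Khdrbs3, an RNA-binding protein, stood at 14.85 and 15.13 and then at 14.51 and 14.05 in PMCAO, and in sham at 14.71 and 14.87 and then at 15.48 and 15.51. Its difference from sham was -1.42 (adjusted p = 0.043), and its PMCAO fall of 0.71 was lost without 6 h sample 2 (adjusted p = 0.13).

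**Figure D5:**
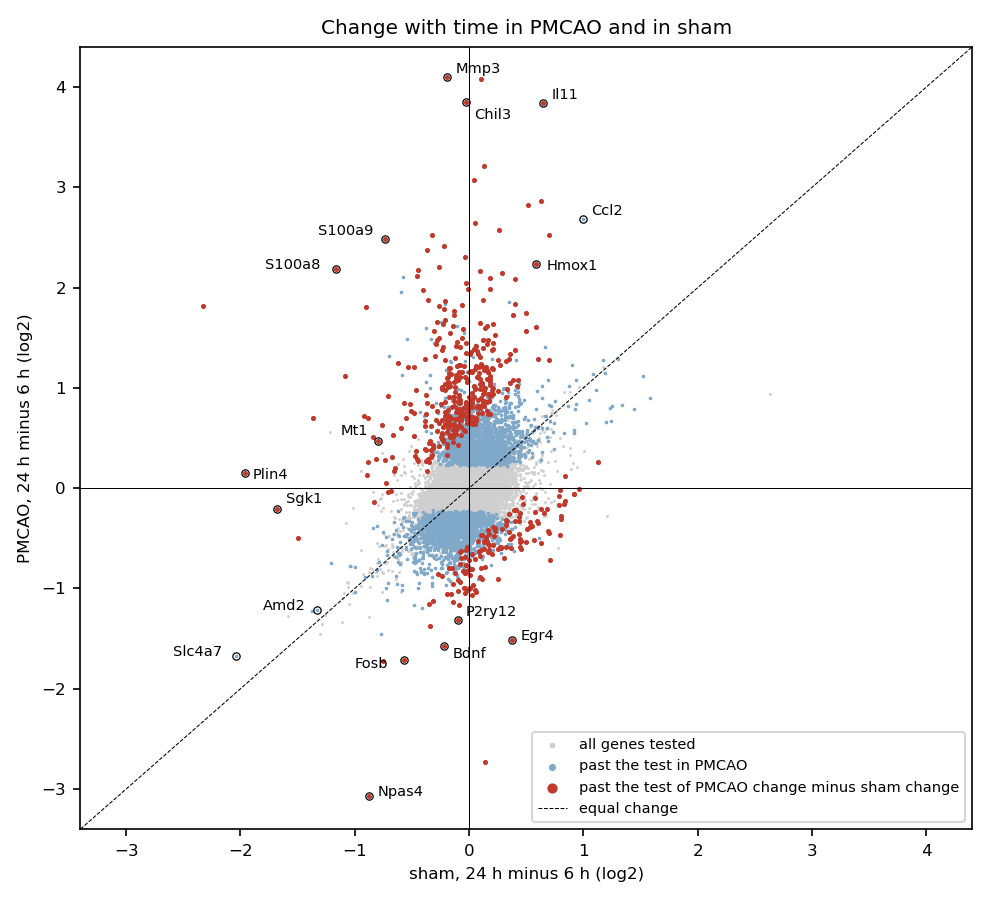
Log2 difference between 24 h and 6 h in sham (horizontal axis) against that in PMCAO (vertical axis) for each of the 19122 genes tested, in grey, with those past the PMCAO test in blue, those past the test of the difference between the arms in red and a dashed line at equal change. Mmp3 lies at -0.19 and 4.10, Npas4 at -0.87 and -3.07 and Plin4 at -1.96 and 0.15.

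Genes of nasal and olfactory mucosa also differed between the times, and they were listed after their values had been seen. Of 27 such genes 11 were tested, 6 rose and 0 fell, beside 11% and 9.41% of all genes tested. Their median was 1.07 in PMCAO and 0.05 in sham. Their mean level was between 7.12 and 7.26 in PMCAO at 6 h, between 8.05 and 8.29 in PMCAO at 24 h and between 7.12 and 7.26 in all sham channels. Mup4, a carrier of odorants, Cyp2a5, a cytochrome P450 of nasal mucosa, Bpifa1, a secreted airway protein, and Cyp2a4 rose by 2.17, 2.09, 1.45 and 1.44. The probes given for Cyp2a4 (chr7:23212199-23212258) and Cyp2a5 (chr7:23212221-23212279) overlap in mm7. Their signals may therefore be shared, and their rises may not be separate. Bpifb9a and Cyp2g1 also passed and were not well above background at 6 h, at least 6.12-fold and at least 2.08-fold higher at 24 h. Omp, the defining protein of olfactory sensory neurons, was not well above background on both arrays of any group. Bpifb9a, Cyp2g1 and Obp2a, the last not called, entered the test only through PMCAO at 24 h. With a list chosen by its values, the highest mean level in that group is partly a product of the choice and no separate support. Of the 11 genes 5 were not called, and the part of these genes in the other results was not tested.

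Markers of further tissues were counted as well. Of 7 pituitary genes tested, Prl, prolactin, was not well above background at 6 h and at least 3.05-fold higher at 24 h, with a sham rise of 0.59 and a difference between the arms of 1.02 (adjusted p = 0.012), and Cga, a hormone subunit, fell by 0.88 and in sham by 0.91. Of 4 red blood cell genes Alas2, an enzyme of heme synthesis, rose by 0.36 (adjusted p = 0.18 without 6 h sample 1) and in sham by 0.37, while Hba-a1, a globin, was at 0.20 and Slc4a1, the anion exchanger of red cells, at 0.23. Choroid plexus and ependyma genes had 4 of 13 lower and 1 higher, with a median of -0.09 in PMCAO and -0.19 in sham, and 1 and 2 lower without 6 h sample 1 and without 6 h sample 2. Sostdc1, a secreted inhibitor of WNT and BMP signals, fell by 0.79 and Tmem212 by 0.45 (adjusted p = 0.052 without 6 h sample 1). Ttr, transthyretin, the main product of the choroid plexus, fell by 0.33 (adjusted p = 0.29 without 6 h sample 1) and in sham by 0.55. The part of these markers in the other results was not tested.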

How the data were processed

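RNA of PMCAO and sham brains was hybridised in pairs to 4 two-colour Agilent 4x44K arrays on 1 slide, with dyes swapped between sample 1 and sample 2 of each time. The deposited scanner files hold intensity values per spot, which per the file headers the authors extracted with Agilent's Feature Extraction software, version 9.5.3.1. A deposited table holds 1 ratio per probe; its size equals the processed Cy5 to Cy3 ratio for 100% of probes (tolerance 0.0051) and its values are negative throughout for sample 1, so its scale and direction are not settled and it served as an alternative only.

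Mean intensities were background-corrected (normexp, offset 50), normalised by loess within arrays and Aquantile between them, and taken to log2. Control spots had no weight in the loess, and outlier spots were left missing. Of 41174 probes, 22951 were named through RefSeq accessions, 6659 by symbol and 3109 by an older symbol, and 8455 kept the file's name. Probe coordinates are those of the files (mm7), and promoter sequences are those of RefSeq (GRCm38.p6). A gene's brightest probe entered the test where, in 1 or more of the 4 groups, both arrays had it well above background. A value "at least" N-fold higher sets the 24 h mean against the higher of the lowest signal well above background and the probe's own on each 6 h array. The 8 channels were fitted with limma 3.58.1 in R 4.3.3 (lmscFit, intraspot correlation -0.418, 4 residual degrees of freedom), with Benjamini-Hochberg adjustment at 0.05, and summaries were made with Python 3.11.15, pandas 2.3.3, numpy 2.4.6 and matplotlib 3.10.9. This main fit had no dye term. With a dye term the intraspot correlation was 0.745, and the dye effect passed limma's adjusted test for 8777 of the 19122 genes. The number of arrays limits the precision: the median standard error was 0.0886 in the main fit. The scripts were tested on simulated data.

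Genes named are the 12 largest differences in each direction with a symbol, per list the 2 members of smallest p and the 5 largest differences from sham in each direction, with further members of the lists beside the counts. The comparison, its lists and members were chosen with earlier results of these data known. Leaving out a sample removed the whole array, after which its time, 6 h or 24 h, held 1 dye orientation, so that a dye effect does not cancel. The alternatives were processed signals, quantile and 75th percentile scaling, other filters, the mean of a gene's probes, a dye term, the PMCAO channels alone, the deposited ratios and each array left out. A few genes that the rule would name are not reported here.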

Additional observations from a re-analysis of the deposited data

Results flagged for a closer look

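For 4 of the named genes the change between 6 h and 24 h passed limma's test in opposite directions in PMCAO and in sham, and the difference between the arms passed as well. S100a8, a calprotectin chain, rose in PMCAO and fell in sham, and the changes differed by 3.35 (adjusted p = 0.0053). Angptl4, an inhibitor of lipoprotein lipase, differed the same way by 1.35 (adjusted p = 0.011), and Sult1a1, a sulfotransferase, by 1.25 (adjusted p = 0.0045). Egr4, an activity-dependent transcription factor, fell in PMCAO and rose in sham, with a difference of -1.89 (adjusted p = 0.00085). The differences of S100a8 and Egr4 passed without each array in turn. Those of Angptl4 (adjusted p = 0.07 without 6 h sample 1) and Sult1a1 (0.064) did not, and the sham changes of all 4 did not pass without at least 1 of the 6 h arrays.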

How the results depend on the processing

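Of 84 named genes, Slc4a1 and Cd8b1 alone turned their direction in PMCAO under an alternative, while the counts of calls depended on the scaling and on the 6 h arrays. With 75th percentile scaling 47 genes were higher and 23 lower in PMCAO, and 0 passed in either direction in sham (512 and 597 at an unadjusted p under 0.05 in limma) or in the difference between the arms; 62 of 84 named genes were no longer called. Leaving out 1 array gave 676 to 2166 higher and 360 to 1950 lower genes in PMCAO, 29 to 710 and 67 to 699 in sham, and 41 to 580 and 2 to 338 for the difference. The fit of all channels with a dye term gave 2404 higher and 2242 lower in PMCAO, 520 and 513 in sham and 3831 and 3607 for the difference. The PMCAO channels alone with a dye term, where dye and sample number coincide, gave 3961 higher and 3853 lower. Across genes, the deviation of PMCAO sample 1 from the mean of its time had a correlation of 0.402 between 6 h and 24 h. Sample 2 is its mirror image. Sample number equals dye in these channels, so a dye effect and a shared source cannot be told apart in this value. The labels do not say that a number marks shared animals. In sham 597 genes were higher with quantile normalisation, and 218 were lower with no filter on dim probes. For the difference 233 were higher with processed signals, 307 were lower with quantile normalisation, and the deposited ratio table gave 51 higher and 7 lower. Slc4a1 was at -0.34 with 75th percentile scaling and Cd8b1 at -0.17 to 0.036 with 1 array left out, neither of them called. Khdrbs3 and Slc4a7 were not called with processed signals, and Slc3a2, Sox10, Erbb3 and Cenpa were not called with the mean of a gene's probes. The cause of these shifts was not tested. Signal over background limits 59 genes called higher, which were not well above background at 6 h, and 9 called lower, which were not at 24 h.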

Other observations

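Imprinted genes, expressed from the allele of 1 parent, were listed after their values had been seen, because Mirg, Dio3 and Phlda2 stood among the 12 largest falls. Of 26 tested, 7 fell and 2 rose, with a median of -0.09, beside 9.41% and 11% of all genes tested. Mirg, Dio3 and Phlda2, which prompted the list, are among the 7, so the count is no separate support. Dio3, the deiodinase that inactivates thyroid hormone, went from 10.34 and 10.47 to 9.13 and 9.34, and Mirg, a noncoding RNA that hosts microRNAs, from 10.77 and 10.61 to 9.52 and 9.52. Mest went from 11.85 and 11.86 to 10.79 and 10.78, while its sham channels lay between 11.00 and 11.19. Phlda2 fell by 1.20 ± 0.26 on 1 of 2 probes. Dlk1, a ligand of the Notch family, rose by 0.66 and H19, a noncoding RNA, by 0.37 (adjusted p = 0.13 without 6 h sample 1). In sham 2 rose and 1 fell, and the PMCAO change was lower than the sham change for 3, namely Dio3 (-1.08), Mest (-1.10) and Kcnq1ot1 (-0.95).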
